A study of Mus musculus with 22 samples.

Results

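Histone H3 lactylated at lysine 18 (H3K18la) was compared with histone H3 acetylated at lysine 9 (H3K9ac) in the telencephalon of mouse embryos at embryonic day 16.5 (E16.5). The members were all peaks on chromosomes 1 to 19 and X in the 4 peak lists of the 2 marks, 2 libraries per mark: 62068 and 76031 peaks for H3K18la, 49640 and 50656 for H3K9ac. Merged wherever they shared at least 1 bp, these peaks made 94761 regions. Of these, 28886 (30.5%) held a peak in all 4 lists and are called shared, 11503 (12.1%) held a peak in both H3K18la lists and in neither H3K9ac list, and 6452 (6.81%) held a peak in both H3K9ac lists and in neither H3K18la list. The remaining 47920 regions were called unevenly between the libraries of a mark. The whole series has 22 samples and 14 peak lists.

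Both groups were ICR mice, an outbred strain, at the same age and with no treatment named in the labels. Chromatin was immunoprecipitated without cross-linking (native ChIP-seq), with a separate antibody for each mark, and each mark had 2 biological replicates. The sources used here do not give the number of embryos per library or their sex. RNA-seq of the same stage had 2 further libraries, with 17533164 and 18024657 counts.

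Acetyl groups on lysines of histone tails are written by acetyltransferases, removed by deacetylases and found at active promoters and enhancers. H3K9ac is known above all as a mark of active gene starts. Lactylation adds a lactate-derived acyl group to lysines, was first described as a link between glycolysis and transcription, and at lysine 18 has been reported at active promoters and at enhancers. The telencephalon at this age holds dividing radial glia, intermediate progenitors and newly formed cortical neurons, with interneurons, blood vessels and other cells among them.

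The regions and genes called by the 2 marks differed in where they lay and in the sequence before the gene start, so the 250 bases before the start site of 10 genes are printed first, from RefSeq on GRCm38.p6, written 5′ to 3′ with every CpG dinucleotide in capitals. CpG-rich starts belong mostly to widely used genes, and CpG-poor starts to genes used in few tissues. The 2 genes that follow had peaks of both marks near the top of all 4 lists: Apc2, a relative of the APC tumour suppressor (chr10:80298853-80299102, plus strand), and Mex3b, an RNA-binding protein (chr7:82867083-82867332, plus strand), with 14 and 22 CpG.
Apc2: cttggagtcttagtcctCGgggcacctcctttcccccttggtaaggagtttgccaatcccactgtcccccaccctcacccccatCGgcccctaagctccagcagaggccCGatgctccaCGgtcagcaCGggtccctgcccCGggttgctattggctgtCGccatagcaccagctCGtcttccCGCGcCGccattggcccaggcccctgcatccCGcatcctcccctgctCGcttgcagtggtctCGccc
Mex3b: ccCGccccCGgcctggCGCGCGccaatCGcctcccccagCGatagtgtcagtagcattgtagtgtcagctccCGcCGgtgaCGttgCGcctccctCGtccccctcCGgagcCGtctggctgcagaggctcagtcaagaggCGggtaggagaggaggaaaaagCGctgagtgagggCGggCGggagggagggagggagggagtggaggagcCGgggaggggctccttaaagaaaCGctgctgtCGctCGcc
At the next 2 starts both marks were called, but the peak ranked far higher in the H3K9ac lists: Paox, a peroxisomal polyamine oxidase (chr7:140125407-140125656, plus strand), and Hmces, which binds abasic sites in DNA (chr6:87913726-87913975, plus strand), with 11 and 17 CpG.
Paox: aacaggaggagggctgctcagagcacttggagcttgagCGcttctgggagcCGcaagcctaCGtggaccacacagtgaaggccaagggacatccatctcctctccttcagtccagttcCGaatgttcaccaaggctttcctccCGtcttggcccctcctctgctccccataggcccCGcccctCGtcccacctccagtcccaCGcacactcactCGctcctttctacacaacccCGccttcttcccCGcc
Hmces: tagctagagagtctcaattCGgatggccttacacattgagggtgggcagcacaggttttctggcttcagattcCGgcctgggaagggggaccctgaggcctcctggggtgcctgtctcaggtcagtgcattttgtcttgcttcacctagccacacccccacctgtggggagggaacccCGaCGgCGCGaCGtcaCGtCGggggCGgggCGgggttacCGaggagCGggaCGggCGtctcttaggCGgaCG
At the next 2, the peak ranked far higher in the H3K18la lists: Adgrg1, an adhesion G protein-coupled receptor needed in cortical development (chr8:94976859-94977108, plus strand), and Bcar3, a signalling adaptor (chr3:122483319-122483568, plus strand), with 4 and 3 CpG. The Bcar3 site is an internal start of that gene.
Adgrg1: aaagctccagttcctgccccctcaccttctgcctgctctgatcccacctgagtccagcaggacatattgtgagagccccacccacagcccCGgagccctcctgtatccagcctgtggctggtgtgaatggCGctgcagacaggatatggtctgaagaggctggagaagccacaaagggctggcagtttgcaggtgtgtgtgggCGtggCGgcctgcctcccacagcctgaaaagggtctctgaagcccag
Bcar3: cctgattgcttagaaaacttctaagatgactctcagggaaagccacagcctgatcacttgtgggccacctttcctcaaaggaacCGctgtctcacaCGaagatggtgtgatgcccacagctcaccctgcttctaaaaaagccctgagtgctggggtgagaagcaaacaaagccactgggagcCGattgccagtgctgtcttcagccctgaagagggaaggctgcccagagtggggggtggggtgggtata
The next 2 starts are of genes called by H3K18la only. They are Asb18, an ankyrin repeat protein (chr1:90014667-90014916, minus strand), and Gcg, the glucagon precursor (chr2:62483654-62483903, minus strand), with 4 and 7 CpG. Both were chosen for print after their values were seen.
Asb18: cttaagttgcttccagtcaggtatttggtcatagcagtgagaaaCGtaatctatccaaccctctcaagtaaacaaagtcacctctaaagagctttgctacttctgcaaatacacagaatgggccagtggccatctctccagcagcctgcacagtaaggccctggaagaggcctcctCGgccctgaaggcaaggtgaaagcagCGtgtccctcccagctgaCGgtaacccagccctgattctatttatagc
Gcg: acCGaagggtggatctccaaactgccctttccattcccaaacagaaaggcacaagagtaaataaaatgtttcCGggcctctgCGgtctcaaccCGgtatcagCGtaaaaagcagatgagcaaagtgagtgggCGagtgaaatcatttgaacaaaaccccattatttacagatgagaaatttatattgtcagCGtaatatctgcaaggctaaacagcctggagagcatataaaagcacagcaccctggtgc
The last 2 are of genes called by H3K9ac only. They are Kdr, the VEGF receptor of endothelial cells (chr5:75978456-75978705, minus strand), and Mki67, the proliferation marker Ki-67 (chr7:135716380-135716629, minus strand), with 16 and 24 CpG. They were also chosen after their values were seen.
Kdr: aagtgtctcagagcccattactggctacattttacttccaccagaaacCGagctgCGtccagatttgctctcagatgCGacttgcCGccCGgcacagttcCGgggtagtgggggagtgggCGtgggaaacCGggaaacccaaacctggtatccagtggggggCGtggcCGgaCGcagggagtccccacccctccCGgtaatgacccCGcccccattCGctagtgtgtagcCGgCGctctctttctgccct
Mki67: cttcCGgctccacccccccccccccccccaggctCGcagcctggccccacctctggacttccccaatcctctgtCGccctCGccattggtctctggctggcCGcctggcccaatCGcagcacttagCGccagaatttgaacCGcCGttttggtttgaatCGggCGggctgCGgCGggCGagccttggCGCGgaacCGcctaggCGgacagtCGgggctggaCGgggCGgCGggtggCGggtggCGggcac

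Over all starts, H3K18la-only genes also had fewer CpG than genes with H3K9ac, as a description. Genes with both marks had more CpG than H3K9ac-only genes, which was not the order of the printed starts. Each start was counted under the marks called at its gene, so a start without a peak near it can be included. The median number of CpG in the 250 bases was 17 at 10610 starts of genes called by both marks. It was 12.5 at 1550 starts of H3K9ac-only genes, 3 at 63 of H3K18la-only genes and 2 at 6919 of genes called by neither. At least 10 CpG were found in 77% of the starts of genes with both marks and 62.8% of those with H3K9ac only. The share was 7.94% for genes with H3K18la only and 5.82% with neither, against 50.6% of all 21020 starts. Of the starts of genes with both marks, 818 were of genes where H3K9ac ranked at least 25 percentile points higher, with a median of 16 CpG. The 46 starts of genes where H3K18la did had a median of 5. Each letter pair CG was counted once, since the complement of CG is CG.

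The 2 H3K18la lists differed more from each other than the 2 H3K9ac lists did, which touches every count here. The first H3K18la list was shorter, with a median peak width of 486 bp against 650 bp in the second. Of the peaks of the first list 86.4% overlapped the second, but only 60.6% of the second overlapped the first, and 22222 regions were called by the second H3K18la library alone. For H3K9ac the overlap was 85.5% and 83.4%. The bases covered by both libraries of a mark made up 0.507 of the bases covered by either for H3K18la and 0.757 for H3K9ac, and between 0.37 and 0.391 across the marks. The tissue label was mostly met by the RNA. Neurod2, a factor of cortical neurons, was at 395 and 372 CPM (counts scaled to the library total). Hoxa2, Hoxb4 and Hoxc6, genes of the hindbrain and spinal cord, were at 0 in both libraries. Of the same list of genes that should be low, En1 was at 0.057 and 0 CPM and Gbx2 at 1.91 and 2.06 CPM.

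H3K9ac peaks lay closer to genes than H3K18la peaks in every library. A peak within 2 kb of either end of a protein-coding gene made up 31.7% and 30.8% of the H3K9ac lists and 21.4% and 18.5% of the H3K18la lists, a mean of 31.2% ± 0.669 (SD, n = 2) against 19.9% ± 2.05 (SD, n = 2). The median distance from a peak's centre to the nearest gene end was 14.4 and 15.2 kb for H3K9ac and 34.2 and 39.1 kb for H3K18la. Both H3K18la libraries lay outside the range of the H3K9ac libraries. With the same number of peaks in each list, the difference in the share near gene ends went from -11.3 to -7.52 points. With the ends of all annotated genes in place of protein-coding ones, the mean difference in distance shrank from 21.9 to 5.11 kb and kept its direction. An exact two-sided permutation test over the 4 libraries gave p = 0.333 for each of these, the smallest p that 2 libraries against 2 can give, so no difference between the marks can pass a threshold of 0.05 here.

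**Figure D1:**
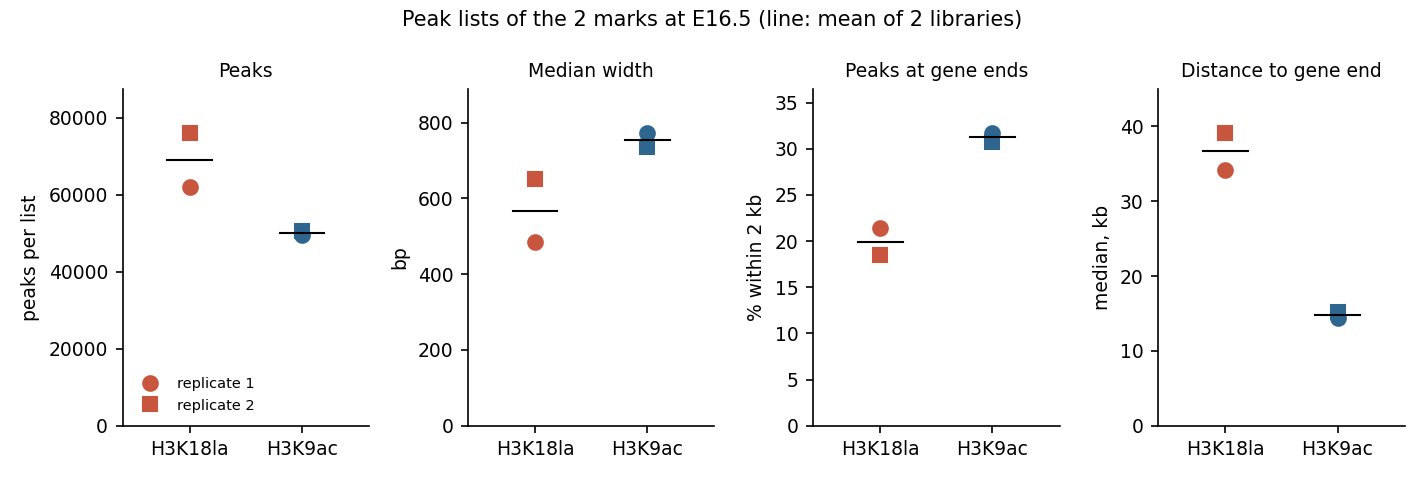
Number of peaks, median peak width (bp), share of peaks within 2 kb of a gene end (%) and median distance to a gene end (kb) in the 4 peak lists, with circles for replicate 1, squares for replicate 2 and a line at the mean of the mark. The H3K18la lists hold more peaks, farther from genes, and their 2 libraries are farther apart in width (486 and 650 bp) than those of H3K9ac (773 and 735 bp).

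Peak width did not order the marks in a stable way. Median widths of 773 and 735 bp for H3K9ac were larger than those of H3K18la, a difference of -186 bp for H3K18la minus H3K9ac (exact permutation p = 0.333). With the 49640 strongest peaks of each list, as many as the shortest list holds, the difference turned to 17.5 bp. Wide peaks of at least 5 kb numbered 140 and 476 for H3K18la and 485 and 496 for H3K9ac. The first H3K18la library stood apart here, and without it the difference in median width was -104 bp.

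At genes, both marks sat at the start far more often than at the far end. Of 11034 protein-coding genes of at least 10 kb with a known strand, 73.9% and 73.8% had an H3K9ac peak within 2 kb of the 5′ end, and 58.9% and 64.8% an H3K18la peak. Within 2 kb of the 3′ end the shares were 12.7% in both H3K9ac lists and 9.15% and 11.7% in the H3K18la lists. The H3K18la lists, with the lower shares at gene starts, were the longer ones.

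Shared regions made up 65.3% of the 44240 regions called by both H3K18la libraries and 71.7% of the 40276 called by both H3K9ac libraries. Without any peak of the other mark were 26% of the H3K18la regions and 16% of the H3K9ac regions. Shared regions were wide, with a median of 1762 bp, against 686 bp for H3K18la-only and 633 bp for H3K9ac-only regions. A region merged from 4 lists is wider by construction, so the peaks inside say more: in shared regions H3K18la covered a median of 966 and 1341 bp and H3K9ac 1185 and 1146 bp, and in regions of 1 mark H3K18la covered 378 and 604 bp and H3K9ac 526 and 530 bp.

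The 3 kinds of region lay in different places. A start site was within 2 kb of 30.6% of the shared and 30.5% of the H3K9ac-only regions but of 1.25% of the H3K18la-only regions (144 of 11503), where all 94761 regions gave 14.3%. Between genes lay 63.1% of the H3K18la-only regions, against 30.5% of the shared and 20.4% of the H3K9ac-only regions. The median distance to a gene end was 80.3 kb for H3K18la-only, 14.2 kb for shared and 5.34 kb for H3K9ac-only regions. Seen from the genome, 65.2% of the 13561 regions at start sites were shared, 14.5% were H3K9ac only and 1.06% H3K18la only, while of the 41553 regions between genes 21.2% were shared, 17.5% H3K18la only and 3.16% H3K9ac only. The share of H3K18la-only regions at start sites stayed between 1.21% and 1.46% under every alternative that gave one.

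Peaks of the other libraries of the series met these classes unequally. H3K9cr, lysine 9 crotonylation, had a peak in both of its E16.5 libraries in 88.8% of the shared, 67.3% of the H3K9ac-only and 0.782% of the H3K18la-only regions. At the earlier stage, E13.5, H3K18la had been called in both libraries in 52.5% of the H3K18la-only and 14.2% of the H3K9ac-only regions, and H3K9ac in 2.75% and 41.7% of them. Over all 94761 regions these shares were 37% for H3K9cr, 48.1% for H3K18la at E13.5, which is near that of the H3K18la-only regions, and 30.9% for H3K9ac at E13.5. ATAC-seq peaks at E13.5, which mark open chromatin, overlapped 42.9% of the shared, 13.6% of the H3K9ac-only and 4.03% of the H3K18la-only regions, against 16.6% of all regions. The shared regions were wider than the others, while the H3K18la-only and H3K9ac-only regions had median widths of 686 and 633 bp; the part of width in these shares was not tested.

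**Figure D2:**
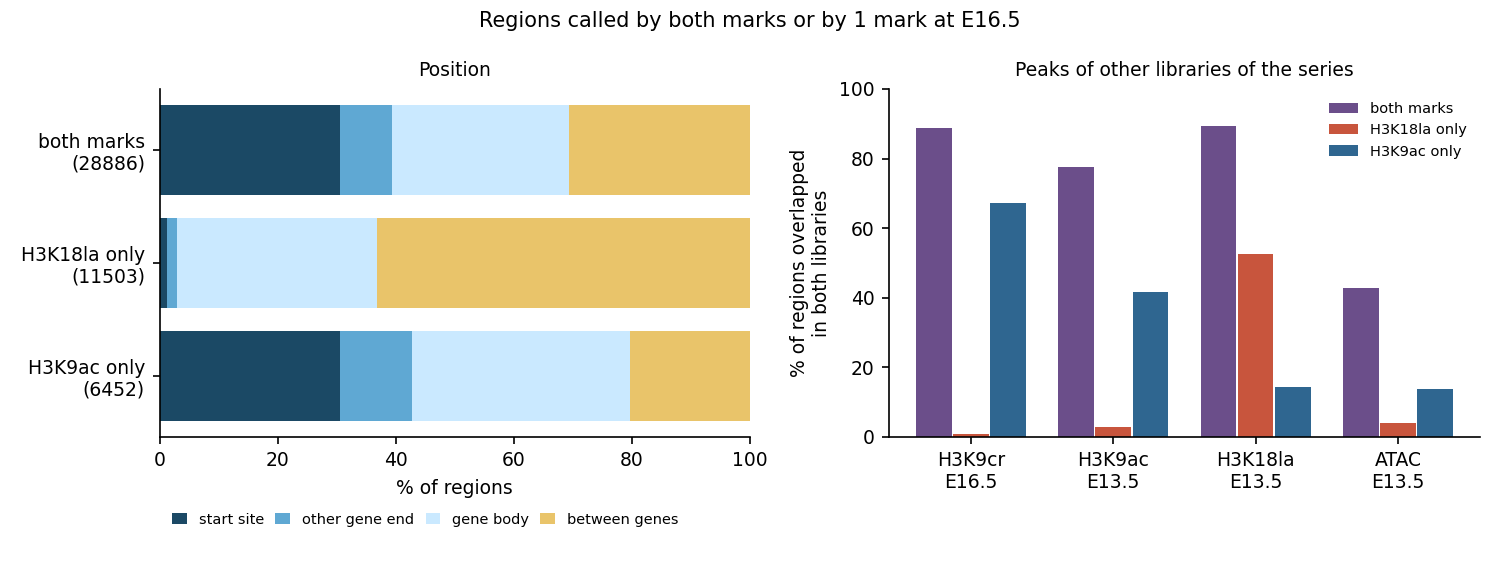
Left, share of regions (%) by position for the regions called by both marks, H3K18la only and H3K9ac only, with their number in brackets; right, share of the same regions (%) overlapped by a peak in both libraries of H3K9cr at E16.5 and of H3K9ac, H3K18la and ATAC-seq at E13.5. The H3K18la-only bars hold 1.25% at start sites and 0.782% with H3K9cr, the lowest of the 3 classes in both.

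How many regions belonged to 1 mark moved with the length of the lists and with the libraries kept. With the same number of peaks in each list, H3K18la-only regions fell to 6045 and H3K9ac-only regions came to 9158, the opposite order. With only peaks of a -log10 q of at least 5 the counts were 7036 and 6554. When the first or the second H3K18la library was left out, H3K18la-only regions rose to 34253 and 22159, and H3K9ac-only regions came to 10829 without the second. Without the first or the second H3K9ac library, H3K9ac-only regions came to 11433 and 10279. With a library left out, fewer lists had to hold or lack a peak, so these counts could rise by the rule itself. No order of the marks by their number of own regions is therefore given.

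The regions called by 1 mark were mostly peaks of lower rank in that mark's lists. Within a list, peaks were ranked by the authors' fold enrichment from 0 to 100, with 100 the highest. The median rank of H3K18la-only regions was 34.8 and 46.9 in the 2 lists and that of H3K9ac-only regions 38.3 and 39.7, against 73 and 79.3 for H3K18la and 65.2 and 66.3 for H3K9ac in shared regions. Of the lowest decile of H3K18la regions 24.7% were also called by H3K9ac, and of the highest decile 99.8% (all but 2 of 4424 had a peak in at least 1 H3K9ac list). Of the H3K9ac regions, 44.1% of the lowest and 98.8% of the highest decile were also called by H3K18la. In the highest decile 73.8% of the H3K9ac but 38.7% of the H3K18la regions were at a start site.

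**Figure D3:**
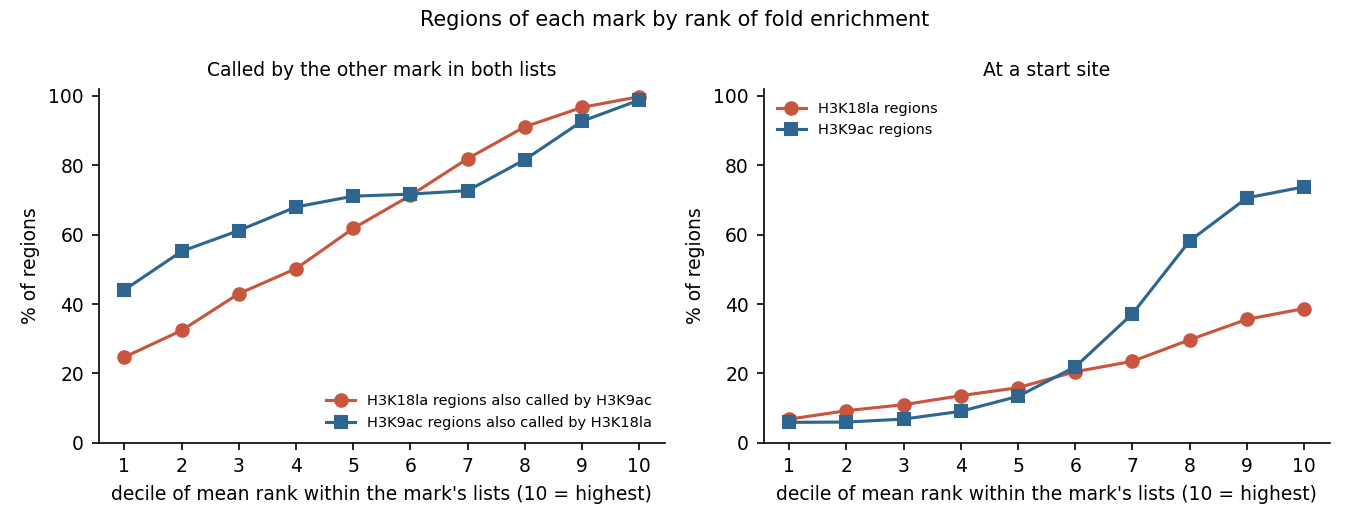
Left, share of the regions of each mark (%) also called by both lists of the other mark, by decile of the mean rank of fold enrichment; right, share of the same regions (%) at a start site. The left curves reach 99.8% and 98.8% in the highest decile, and the right curves part from the seventh decile on, to 73.8% for H3K9ac and 38.7% for H3K18la.

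Some regions of 1 mark were nevertheless strong. The 4 H3K18la-only regions of highest rank lay away from gene ends. The first, chr6:100126278-100129975, 3698 bp wide and 100.4 kb from Rybp, a Polycomb-associated protein, had fold enrichments of 12 and 14.7 (ranks 92.8 and 95.2). The others lay 105.7 kb from Nedd4l, a ubiquitin ligase, inside Gng7, a G protein subunit, and inside Tenm2, a synaptic adhesion protein, with folds of 10.7 to 13.4. All 4 had an H3K18la peak in both E13.5 libraries and none had an H3K9cr peak in both E16.5 libraries. The 4 H3K9ac-only regions of highest rank lay at Tcea1, a transcription elongation factor (folds 65.4 and 57.6), at Pgam5, a mitochondrial phosphatase (64 and 55.3), at Rab12, a small GTPase (56.7 and 62.2), and 11.05 kb from the zinc finger gene Zfp583 (56.4 and 57.9). All 4 had H3K9cr peaks in both E16.5 libraries and H3K9ac peaks in both E13.5 libraries. At Tcea1 and Pgam5, H3K18la had also been called in both E13.5 libraries.

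Within shared regions the marks ranked differently by place. Spearman's rho between the ranks of the 2 marks was 0.427 to 0.494 over the 4 pairs of libraries, while it was 0.795 between the H3K18la libraries and 0.948 between the H3K9ac libraries. These are descriptions over 28886 regions, which share the same 4 libraries, and carry no p. For H3K9ac, the median fold was 46.9 and 42.8 in the 8842 shared regions at start sites and 8.11 and 7.89 in the 8821 between genes. For H3K18la, it was 7.41 and 8.15 at start sites and 6.45 and 7.33 between genes. In rank, H3K9ac dropped from 87.4 and 87.6 at start sites to 51.1 and 52.3 between genes, and H3K18la from 78.6 and 82.4 to 72 and 78.8. So the H3K9ac lists separated start sites from other shared regions much more than the H3K18la lists did.

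The covered length followed the same order. At start sites H3K9ac covered a median of 1852 and 1859 bp of a shared region and H3K18la 890 and 1186 bp. Between genes H3K9ac covered 833 and 804 bp and H3K18la 1074 and 1538 bp. In both kinds of place the libraries of the 2 marks did not overlap.

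A shared region was said to lean to a mark when the lower of that mark's 2 ranks was at least 25 points above the higher of the other mark's. H3K18la was ahead in 4293 of the 28886 shared regions (14.9%) and H3K9ac in 1079 (3.74%). The smallest gaps counted were 25.0054 points for H3K18la and 25.0058 for H3K9ac, and the largest not counted were 24.9995 and 24.9981. Of the regions that leaned to H3K18la 1.63% were at a start site and 51.3% between genes, with a median distance to a gene end of 55.2 kb. Of those that leaned to H3K9ac 66.5% were at a start site and 8.53% between genes, with a median distance of 0.556 kb. At start sites H3K18la was ahead in 70 of 8842 regions (0.792%) and H3K9ac in 717 (8.11%), and between genes H3K18la was ahead in 2203 of 8821 (25%) and H3K9ac in 92 (1.04%).

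The counts of leaning regions moved with the lists, and the share at start sites moved less. With the same number of peaks in each list, 2548 regions leaned to H3K18la and 1844 to H3K9ac. Without the first H3K18la library the counts were 7769 and 3095, and without the second 5317 and 3538. Without the second H3K9ac library 6776 regions leaned to H3K18la. With a library left out, fewer ranks had to meet the rule, so these counts could rise by the rule itself. Over all alternatives that gave a value, 1.62% to 2.34% of the regions leaning to H3K18la and 57.7% to 70.1% of those leaning to H3K9ac were at start sites. The 2.34% came without the first H3K18la library, where the share for H3K9ac was 60.9%, and the 57.7% without the second. H3K9cr was called in both E16.5 libraries in 74.9% of the former and 99.4% of the latter, and ATAC-seq peaks of E13.5 overlapped 26.6% and 58.6%.

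**Figure D4:**
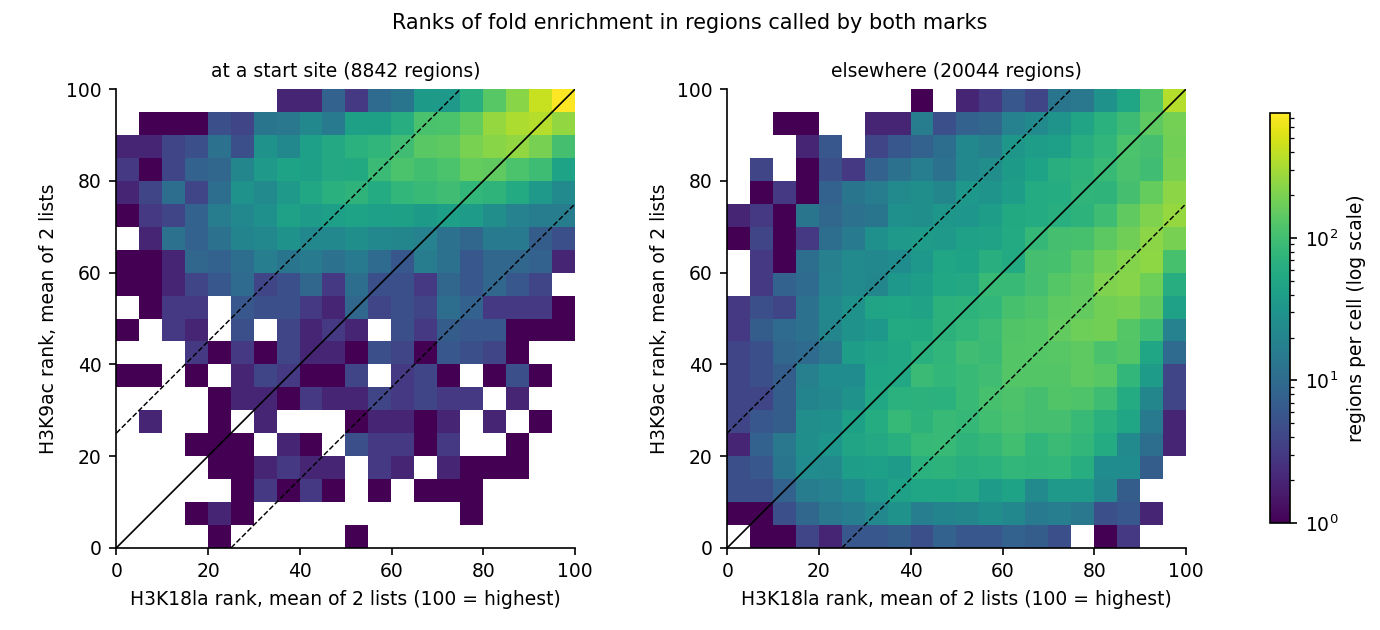
Mean rank of fold enrichment in the 2 H3K18la lists (x axis, 100 = highest) against that in the 2 H3K9ac lists (y axis) for the regions called by both marks, as the number of regions per cell on a log colour scale, at start sites and elsewhere; the solid line is equal rank and the dashed lines are 25 points apart from it. At start sites the regions crowd at the top of the H3K9ac axis, while elsewhere they spread below the line of equal rank. The dashed lines use mean ranks, so a region beyond them need not lean to a mark. Leaning to H3K9ac asks that its lower rank be at least 25 points above the higher H3K18la rank. At start sites 717 regions met this rule.

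The strongest shared regions near gene ends were at the top of all 4 lists. Apc2 (chr10:80297664-80303695, 6032 bp) had fold enrichments of 48.5 and 56.6 for H3K18la and 194 and 180 for H3K9ac. Next came Soga3, the histone gene H4f16, Maco1, the pair Mrps18b and Ppp1r10, and Mex3b, with H3K18la folds between 38.9 and 54.1 and H3K9ac folds between 151 and 222. All 6 ranked above 99.9 in each list. Histone genes have near-identical copies, so reads at H4f16 could have been placed among them, which was not tested.

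The widest shared regions were broad domains. The first, 46749 bp at chr3:88196549-88243297, included an end of Rhbg, an ammonium transporter. The second, 38859 bp, lay 64.9 kb from Mef2c, a transcription factor of cortical neurons, with folds of 32 and 33.9 for H3K18la and 201 and 184 for H3K9ac. The third and the fourth included start sites of Bcl11b (38194 bp), a factor of deep-layer neurons, and Nr2f1 (37712 bp), a regulator of cortical area identity.

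At gene ends the largest gaps in favour of H3K18la were at 6 genes. At the Adgrg1 start printed above, H3K18la had folds of 9.15 and 8.84 (ranks 86.2 and 85.1) and H3K9ac 4.32 and 3.91 (ranks 18.4 and 13). Klrg1, a receptor of lymphocytes, had ranks of 78.6 and 86 against 16.6 and 10. Ccdc33, Pdcd1lg2 (the immune ligand PD-L2), Bcar3 and Dpys (a pyrimidine-degrading enzyme) followed, with H3K18la ranks between 74.4 and 92.3 and H3K9ac ranks between 0.623 and 33.1. The gap at Pdcd1lg2 was at the far end of the gene, whose start was called by H3K18la only. At all 6, H3K18la had been called in both libraries at E13.5, as it had in 92.8% of the regions leaning to H3K18la and 89.5% of all shared regions.

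The largest gaps in favour of H3K9ac were at 6 genes, all of them at start sites. At Paox, printed above, H3K9ac had folds of 41 and 42 (ranks 84.7 and 87.2) and H3K18la 2.97 and 2.87 (ranks 2.75 and 4.79). At Tyms, thymidylate synthase, the H3K9ac folds were 41.8 and 27.9 and the H3K18la folds 2.9 and 2.32. Hmces, Zfp420 (a zinc finger gene), Tars2 (the mitochondrial threonyl-tRNA synthetase) and Apba3 (an adaptor protein) had H3K9ac ranks between 80.4 and 92.6 and H3K18la ranks between 0.172 and 11.3. For these 12 genes the order of the marks stayed in the 82 alternative values that could be computed. They were picked for the largest gaps in these same lists, so leaving out a library could not turn the order. The 82 values are therefore no independent check of it. The 6 regions leaning to H3K9ac have no value at a -log10 q of at least 5 or with the same number of peaks per list, and Klrg1 and Ccdc33 none at the stricter q.

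Genes were called for a mark when each of its 2 lists had a peak within 2 kb of a start site, or of either end for the 4357 of 21631 protein-coding genes whose strand is not known here. Both marks were called at 11077 genes (51.2%), H3K9ac only at 1639 (7.58%), H3K18la only at 75 (0.347%) and neither at 6922 (32%). Leaving out the first H3K18la library raised the H3K18la-only genes to 212, and leaving out the second raised the H3K9ac-only genes to 2811. Fewer lists then had to hold or lack a peak, so these counts could rise by the rule itself. Of the 75 genes 22 had an H3K9ac peak within 5 kb, and of the 1639 genes 230 had an H3K18la peak within 5 kb.

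The RNA of E16.5 differed between these classes. At least 1 CPM in both libraries was reached by 93.5% of the genes with both marks, 66.3% of those with H3K9ac only, 20.5% of those with H3K18la only and 7.46% of those with neither, against 62.3% of all coding genes, a share near that of the H3K9ac-only genes. Listed at 0 in both libraries were 0.877%, 4.7%, 31.5% and 64% of them, against 21.2% of all coding genes. CPM is not scaled by gene length, which was not used here. In the authors' deposited table of E16.5 against E13.5, 18.9% of the 16923 coding genes with a p-value were higher and 21.8% lower at E16.5, at an adjusted p under 0.05. In the authors' deposited table the shares were 21.6% and 28.3% for genes with both marks, 20.8% and 14.9% with H3K9ac only, and 7 and 1 of 53 genes with H3K18la only. In bulk tissue, fewer cells of a type and less RNA or mark per cell cannot be told apart.

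Among the genes called by H3K18la only, 2 reached 10 CPM in both RNA libraries. Kcnk9, a potassium channel subunit, was at 18.5 and 20 CPM, with H3K18la folds of 3.96 and 3.62, and its nearest H3K9ac peak was 77.5 kb from a gene end. Eogt, a glycosyltransferase, was at 29.5 and 30 CPM, with folds of 2.73 and 4.02, but an H3K9ac peak lay 2.11 kb away, just outside the window. The strongest of the class at a known start was 7530416G11Rik, with folds of 11.6 and 18, whose RNA was at most 0.057 CPM. Others were known from organs other than brain, such as Gcg, Apob (the lipoprotein of liver and gut), Tg (thyroglobulin), Il6 and Zp2 (a protein of the egg coat), named here after their values were seen. Some neighbours, such as S100a4 and S100a5, were called through the same peak.

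Among the genes called by H3K9ac only, 515 reached 10 CPM in both libraries. Those of highest rank included Ehbp1l1, Tcea1, Pgam5, Xpo7 and Vps28, with H3K9ac folds between 45.7 and 87.6. At Ehbp1l1 and Xpo7, a nuclear transport receptor, an H3K18la peak lay 2.27 and 2.45 kb away. At Tcea1, Pgam5 and Vps28, part of the ESCRT-I complex, the nearest one was 50, 16 and 14.2 kb away.

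Of the genes called by both marks, H3K9ac was ahead by 25 points in rank at 865 (7.81%) and H3K18la at 48 (0.433%). At least 1 CPM in both RNA libraries was reached by 93.8% of the former with an RNA value and by 22 of 45 of the latter. Of the genes leaning to H3K18la, 23.8% (10 of 42) were higher and 2.38% (1 gene) lower at E16.5 in the authors' deposited table. For the genes leaning to H3K9ac the shares in the authors' deposited table were 18.5% and 28.9%, and for all genes with both marks 21.6% and 28.3%.

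Lists of genes known for a cell type or process were then counted by mark, against 51.2% of all coding genes called by both. Every member of the lists for radial glia (12), intermediate progenitors (8), deep-layer neurons (8), upper-layer neurons (8), synapse (14), astrocyte lineage (10), cytosolic ribosomal proteins (14) and glycolysis and lactate (20) was called by both marks. Enzymes that add or remove histone acyl groups were called by both at 13 of 14 genes, the other being Sirt1, called in 1 H3K18la library. Among the members called by both marks that are reported here, Nes, Ebf1, Stx1a, Kat2a and Ccnb1 leaned to H3K9ac by the 25-point rule, as did Rpl5, Gpi1, Slc16a3 and Pdgfrb, and the complement gene C1qa leaned to H3K18la.

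Intermediate progenitors had the highest H3K18la ranks. Their medians were 97.5 and 97.9 for H3K18la and 90.2 and 89.4 for H3K9ac, where all genes with both marks had 80.2 and 83.5 for H3K18la and 88.5 and 88.7 for H3K9ac. Btg2, an antiproliferative gene of cells about to divide into neurons, had H3K18la folds of 24.9 and 30.9 and H3K9ac folds of 98.5 and 72.4. Dll1, a Notch ligand, had 24.3 and 29.5 against 93.7 and 68.7, and Hes6, which promotes neurogenesis, 20 and 32.5 against 65.6 and 63.3. Eomes, which defines these cells, ranked lower, at 62.5 and 74.4 for H3K18la and 66.8 and 59.7 for H3K9ac, with RNA at 125 and 109 CPM.

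In ribosomal protein genes H3K9ac ranked above H3K18la, as it did over all genes with both marks (medians of 88.5 and 88.7 against 80.2 and 83.5). Their median rank was 97.3 and 97.8 for H3K9ac and 85.3 and 90.8 for H3K18la, above all such genes for both marks. Of the 14 genes 1 leaned to H3K9ac, beside 7.81% of all genes with both marks. Rpl5 had H3K9ac folds of 83.1 and 77.2 (ranks 96.9 and 97.3) and H3K18la folds of 5.37 and 5.26 (ranks 58.7 and 61.5), and it leaned to H3K9ac by the 25-point rule. Rpl10a and Rpl3 were among the top ranks of both marks.

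Neuronal lists differed among themselves. In upper-layer neurons the median ranks were 89.1 and 91.5 for H3K18la and 91.7 and 92.1 for H3K9ac, with Pou3f3 at the top (H3K18la folds 20.5 and 39.2, H3K9ac 146 and 147, RNA 698 and 624 CPM). In deep-layer neurons they were 76.9 and 88.4 for H3K18la and 81 and 82.1 for H3K9ac. By the mean over the 4 lists Nfib and Bcl11b ranked highest there, but for H3K18la Bcl11b, at 75.1 and 88.6, was below Fezf2, at 87.4 and 97.2. In the synapse list the medians were 85.9 and 83.1 for H3K18la and 86.2 and 87.5 for H3K9ac. Gria2, a glutamate receptor subunit, had the highest mean over the 4 lists, with H3K18la folds of 13.3 and 17.4 and H3K9ac folds of 107 and 96.8. For H3K18la it was below Dlg4, a scaffold of excitatory synapses, with H3K18la folds of 22.5 and 36.7. Of the 12 genes of inhibitory neurons 10 were called by both marks, led by Gad2, which makes GABA, and the neighbours Dlx5 and Dlx6, which share a peak. Lhx6, a factor of migrating interneurons at 127 and 138 CPM, was called by H3K9ac only, with folds of 18.2 and 19.1.

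The glycolysis and lactate list, which bears on how lactate is made, had median ranks of 87.4 and 87.6 for H3K18la and 87.1 and 84.6 for H3K9ac. Gapdh had H3K18la folds of 16.4 and 18.2 and H3K9ac folds of 88.2 and 81.2, and Pkm, pyruvate kinase, 19.4 and 19 against 87.3 and 57.6. Ldha, the lactate dehydrogenase subunit that favours lactate, had 8.63 and 6.87 against 38.8 and 38.3. Gpi1 and the lactate exporter Slc16a3 leaned to H3K9ac. Of the acyltransferases, Kat7, Kat5 and Ep300 had the highest ranks.

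Genes of blood vessels were mostly called by H3K9ac alone. Of 10 genes of endothelial cells and pericytes, 6 were called by H3K9ac only, 1 by both marks, 1 by neither and 2 unevenly, beside 7.58% H3K9ac only over all coding genes. Kdr, printed above, had H3K9ac folds of 19.4 and 15.6 and RNA at 93.1 and 104 CPM, Kcnj8, a pericyte channel, 6.81 and 8.27, and Cldn5, the tight junction claudin of vessels, 8.29 and 6.61. Pdgfrb, a pericyte receptor, was called by both marks and leaned to H3K9ac. These are peaks of middle or low rank, between 3.29 and 71.5.

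Cell cycle genes were called by both marks at 7 of 12, by H3K9ac only at 3 and unevenly at 2. Over all coding genes the shares were 51.2%, 7.58% and 8.87%, so the share with both marks was near that of all genes. Mki67, printed above, had H3K9ac folds of 18.5 and 17.8 with RNA at 174 and 161 CPM, Aurkb, a mitotic kinase, 13.5 and 18.4, and Mcm3, of the replicative helicase, 12.1 and 10.3. Mcm5 and Pcna, both of DNA replication, were called by both, with H3K18la folds of 14.8 and 13 and of 12 and 9.47. Meningeal and choroid plexus genes were called by H3K9ac only at 4 of 9, among them Otx2, Col1a2 and Foxc1, beside 7.58% of all coding genes. Of the others, 1 was called by both marks (Kl), 1 by H3K18la only (Ttr), 2 by neither and 1 unevenly. The uneven gene, Col1a1, had H3K18la ranks of 87.4 and 84.5 and an H3K9ac peak in 1 list.

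Lists of other cells and organs had few calls. Both marks were called at 2 of 8 oligodendrocyte lineage genes, 2 of 10 microglial genes (P2ry12 and C1qa), 1 of 8 erythroid genes (Klf1) and 3 of 12 genes of other organs. Neither mark was called at 10 of 13 Hox genes, whose RNA was at 0 in both libraries, at 6 of 8 erythroid genes, at 7 of 12 genes of other organs and at 5 of 10 microglial genes, beside 32% of all coding genes. The globin Hba-a1 had no peak of either mark while its RNA stood at 1418 and 1929 CPM. A peak missing from a list does not show that the mark is absent, and the cause of this difference was not tested. Ttr, transthyretin of the choroid plexus, was called by H3K18la only, and its RNA was at 0.627 and 19.7 CPM in the 2 libraries.

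**Figure D5:**
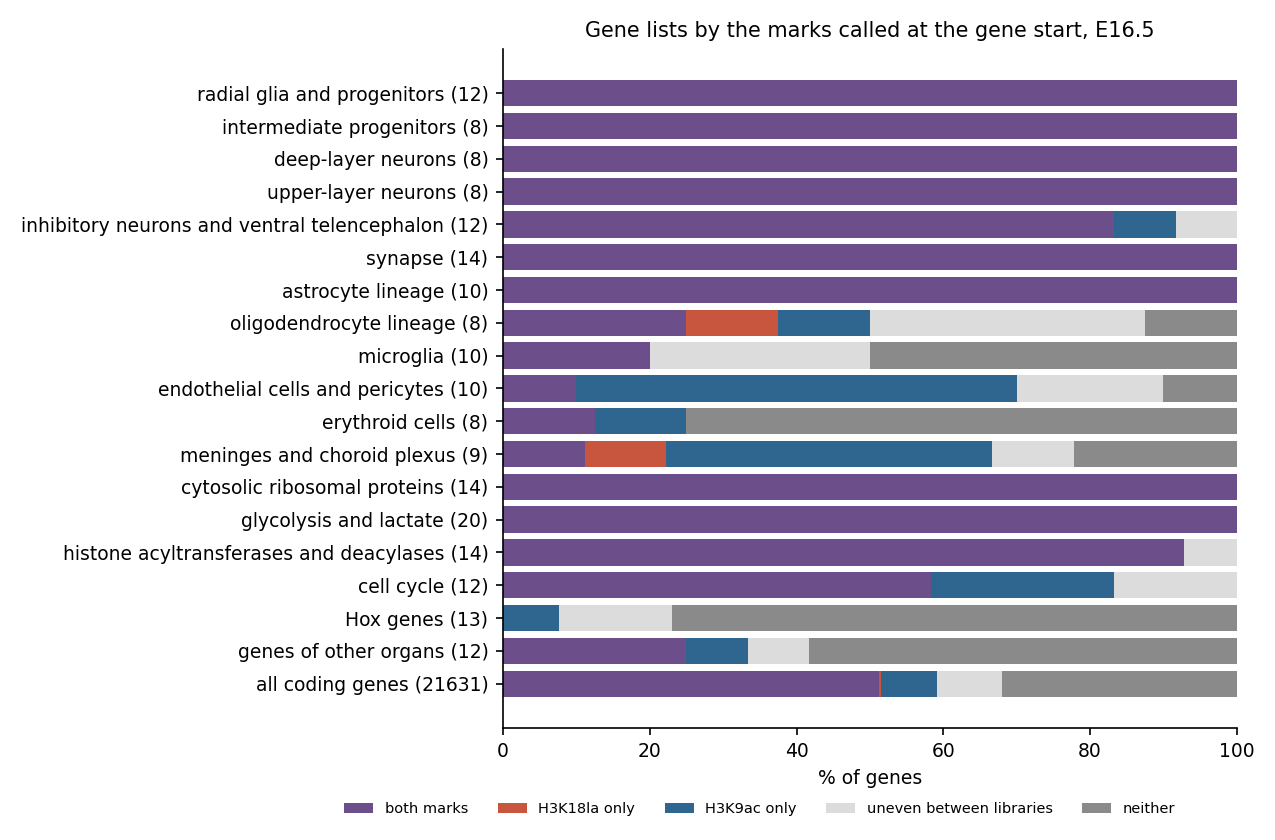
Share of the genes of each list (%) called by both marks, H3K18la only, H3K9ac only, unevenly between the libraries of a mark, or by neither, with the number of genes in brackets and all coding genes in the last bar. In 8 lists every gene is called by both marks, and the list of endothelial cells and pericytes has 6 of 10 genes with H3K9ac only.

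The same pair of marks at E13.5 gave 85811 regions, of which 28.6% were shared, 22.8% H3K18la only and 2.69% H3K9ac only, with rho of 0.281 to 0.388 between the marks. H3K9cr against H3K9ac at E16.5 gave 58418 regions, of which 57.2% were shared, 0.56% H3K9cr only and 4.71% H3K9ac only, with rho of 0.936 to 0.961. Both comparisons at E16.5 use the same H3K9ac libraries. The ranges of rho did not overlap between the 3 comparisons, and no test of the difference was made.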

How the data were processed

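Per the submitters' processing notes, Bowtie2 2.4.1 (alignment), MACS2 2.2.7.1 (peak calling) and the build GRCm38 were used for ChIP-seq. The sources used here do not give the control, the handling of duplicates or the options of the peak caller. The deposited peak lists hold, per the file headers, a pileup signal, a -log10 p, a fold enrichment ratio and a -log10 q (the lowest near 2), called per library. For RNA the same notes name Salmon 1.1.0, and the deposited estimated counts were divided here by library totals (CPM). The authors' deposited table of E16.5 against E13.5 gives log2 fold changes and p-values; DESeq2 1.26.0 is named in the same notes. The read depth behind the peaks is unknown.

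Peaks on chromosomes 1 to 19 and X were merged across 4 lists at an overlap of at least 1 bp. A list's peaks were ranked by fold enrichment, since levels of different antibodies are not comparable. Start sites were those of the RefSeq promoter table plus the 5′ end of each gene with known strand (17274 of 21631 protein-coding genes); chromosome 18 has none and both gene ends were used. This definition was chosen after the data were seen. Gene symbols matched the RNA table for 97.2% of coding genes. Libraries were compared by exact permutation; the labels call them biological replicates. The merging, ranking and calling of regions, and of genes by their ends, were tried on simulated data (Python 3.11.15, scipy 1.17.1). The permutation test and the calls by start site were not.

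The regions named are, by rule, the 4 of highest mean rank for each mark alone, the 6 highest, the 6 with the largest gap each way at gene ends, and the 4 widest shared ones. The genes named are the 6 of highest rank with at least 10 CPM for each mark alone and up to 3 per list and class, plus members leaning to a mark. Eomes, Ldha and Hba-a1 were chosen after their values were seen. The members and lists were chosen with earlier results of these data known. Alternatives were the peak threshold, list length, overlap, window, gene set, ranking measure and leaving out each library. The 4 input libraries were not analysed here. Results for some genes are not reported here.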

Additional observations from a re-analysis of the deposited data

How the results depend on the processing

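Of 233 values recomputed under other settings, those for the main counts and differences came to 88 that stayed, 24 that moved and 1 that turned. A count stayed when it was within a set ratio of the reported one, and a difference when its sign held. H3K9ac-only regions thus count as stayed with the same number of peaks per list, at 9158 against 6452. The replicate block repeats the reported differences by construction. Median peak width turned to 17.5 bp with the same number of peaks in each list. H3K18la-only regions numbered 7036 at a -log10 q of at least 5, 6045 with the same number of peaks per list, 22933 where an overlap of 50% of the shorter region was asked, and 13380 to 34253 with a library left out. With only the calling mark held to a -log10 q of at least 5, a setting chosen after seeing the data, they numbered 5936. H3K9ac-only regions numbered 14604 with the 50% overlap and 7360 to 11433 with a library left out. With the 50% overlap, regions were overlaps of a mark's 2 lists, and those not matched to such a region of the other mark were counted as its own. A peak in 1 list of the other mark was thus allowed, so these 2 counts are of a wider class. The rank correlation between the marks was 0.422 at the stricter q and 0.348 with the 50% overlap. Regions leaning to H3K18la numbered 2548 with lists of the same number, 2409 where each list had 1 peak in the region, and 5317 to 7769 with a library left out. Regions leaning to H3K9ac numbered 1844 with lists of the same number and 1306 to 3538 with a library left out. H3K18la-only genes numbered 48 within 1000 bp, 124 within 5000 bp, 680 over all annotated genes, and 95 to 212 with a library left out, and H3K9ac-only genes 1748 to 2811 with a library left out. With a library left out, fewer lists had to hold or lack a peak, so counts could rise by the rule itself. Some settings hold fewer peaks, and the 50% overlap also counts a wider class. Beyond this, the cause of the moves was not tested. Settings for start sites were added after seeing the data: with listed start sites only, 71 genes were H3K18la only and 1623 H3K9ac only, and with both ends of every gene 104 and 1610. With the replicate number as a replicate block, the differences stayed at -11.3 points, 21868 bp and -186 bp, with a smallest possible exact p of 0.5. The libraries share only a number: rank differences between library 1 and library 2 correlated at 0.207 across the marks over 28886 regions, and only 2 pairs exist. With 2 libraries per mark and no read depth in the lists, a peak missing from a list does not show that the mark is absent.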
